A study of Homo sapiens with 12 samples.

Results

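The genes of mitochondrial and peroxisomal fatty acid oxidation were followed in 2 human gastric cancer cell lines, AGS and MKN74, with and without overexpression of the transcription factor ONECUT2. The 33 genes were chosen by name, without a cut on their values but with earlier results of these data known. They cover the carnitine shuttle, the mitochondrial beta-oxidation enzymes with their electron carriers, and the peroxisomal enzymes with a transporter and an import receptor. All 33 were among the 13091 genes of the deposited table. RNA sequencing gave 1 library for each of the 4 groups, AGS control, AGS with ONECUT2 overexpression, MKN74 control and MKN74 with ONECUT2 overexpression. The sources used here do not say how the overexpression was made, or whether the cells were a pool or a single clone. The study's title names ACSL5, a long-chain acyl-CoA synthetase, as a gene set off by ONECUT2, and oxidation is one of the fates open to the acyl-CoA that such an enzyme makes.

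A fatty acid is first joined to coenzyme A. Long acyl chains cross into the mitochondrion as carnitine esters, through carnitine palmitoyltransferases and a carrier, and are then shortened by repeated rounds of dehydrogenation, hydration, a further dehydrogenation and thiolytic cleavage. Electrons from the acyl-CoA dehydrogenases pass through the electron transfer flavoprotein to ubiquinone. Peroxisomes take very long and branched chains through ABC transporters and shorten them with an oxidase, a bifunctional protein and thiolases of their own. Many of these genes are targets of the PPAR nuclear receptors and their coactivators in tissues that burn fat.

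Levels are in CPM, the reads of a gene scaled to a fixed library size so that libraries of unequal depth can be compared. Change here means log2(CPM + 1) in the overexpression library less that in the control of the same line, a scale on which low genes appear to change less than they do. A gene was called past 1.5-fold, or 0.58 on this scale, if its 2 libraries averaged 1 CPM or more. With 1 library per group no change within a line has a replicate check, so the changes describe these libraries. Ratios of CPM carry exact Clopper-Pearson intervals at 95%, which cover counting error only. Transcript lengths were not used, so levels are compared for a gene across libraries and not between genes. The listed reads came to between 36097456 and 38110453 per library. ONECUT2 stood at 4.39 and 18.3 CPM in the AGS control and overexpression libraries and at 5.14 and 57.6 CPM in those of MKN74, so the labelled gene was higher in both overexpression libraries. ACSL5 was at 8.92 and 45.9 CPM in AGS and at 0.550 and 71.9 CPM in MKN74. All 5 epithelial markers were listed, with a summed level of 4729 to 13673 CPM. CDH1, the epithelial cadherin, was low in both AGS libraries, at 7.63 and 8.74 CPM. Of 5 gastric mucosa markers only MUC1 and TFF1 were listed, summing to 3.59 and 6.06 CPM in the MKN74 libraries and to 149 and 193 CPM in AGS. COL1A1 was the only 1 of 5 fibroblast markers listed (6.77 to 18.3 CPM) and CD68 the only 1 of 4 immune markers (6.14 to 11.2 CPM). None of the 3 endothelial markers was listed.

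**Figure D1:**
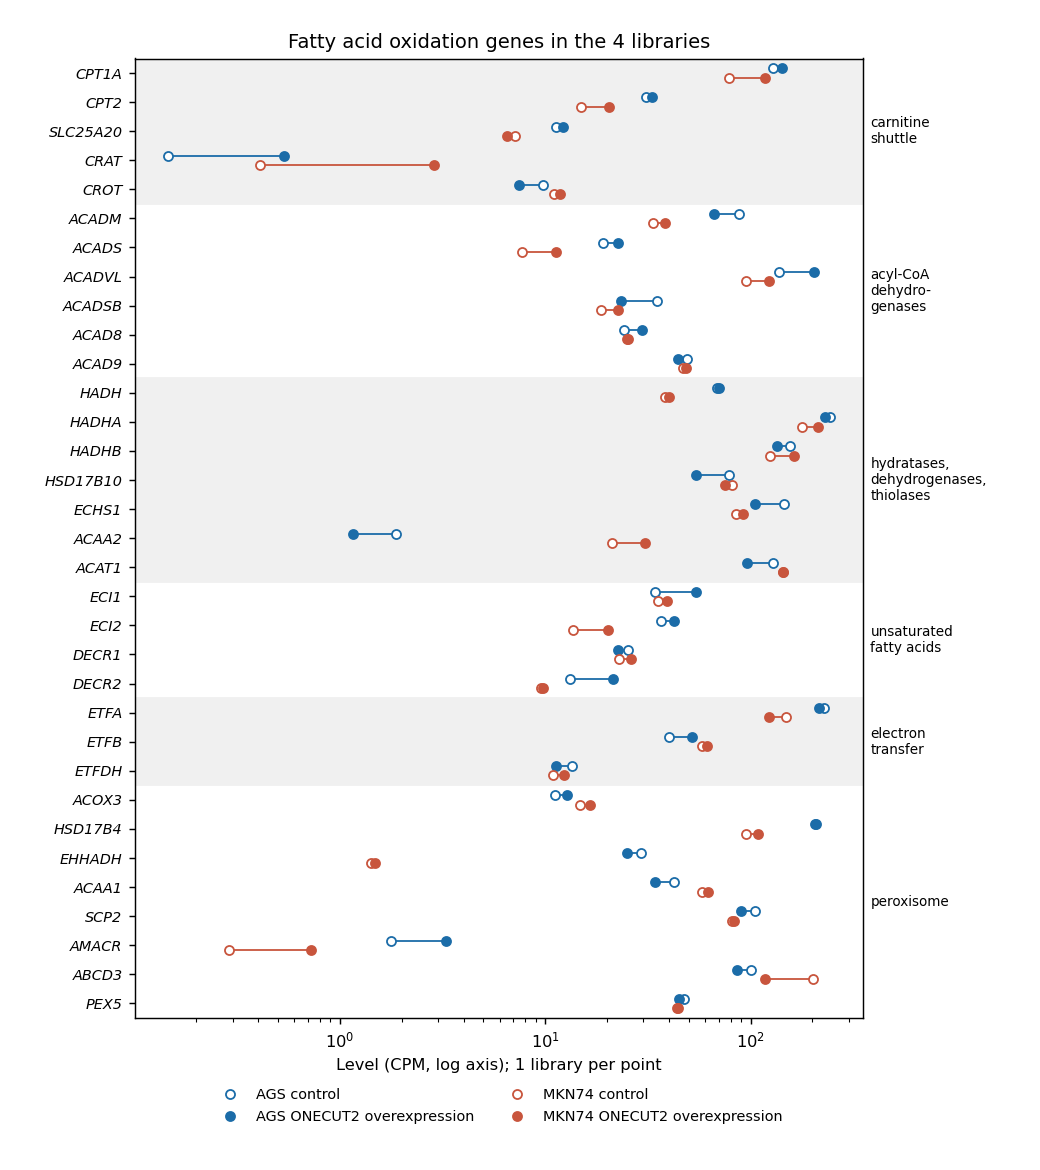
Level of each of the 33 genes in CPM (log axis), open circles for control and filled circles for ONECUT2 overexpression, blue for AGS and red for MKN74, 1 library per circle, grouped by role. Most genes lie between 5 and 250 CPM in every library, and CRAT, AMACR, EHHADH and ACAA2 reach 3 CPM or less in the libraries of at least 1 line.

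Few of these genes differed by 1.5-fold or more with overexpression. In AGS 3 of 32 measured genes were at least 1.5-fold higher, DECR2, ECI1 and AMACR, and 0 were lower. Of all 11675 genes tested in AGS 11.2% were at least 1.5-fold higher and 5.73% lower. At 2-fold none of the members was called in AGS, where 4.92% of all genes were (4.19% higher, 0.728% lower), and CRAT was called in MKN74, where 4.61% were (3.26% higher, 1.35% lower). In MKN74 CRAT was at least 1.5-fold higher and ABCD3 at least 1.5-fold lower among 32 measured genes, where 6.61% of 11914 genes were higher and 4.46% lower. The called shares of these genes, 9.38% in AGS and 6.25% in MKN74, lay below the 17.0% and 11.1% of all genes called in either direction. These gaps rest on few genes and depended on the scaling. With quantile normalization 5 of 32 were called in AGS and 3 of 32 in MKN74, beside 16.0% and 11.5% of all genes. With scaling by listed totals 4 of 32 were called in each line, beside 17.6% and 11.7%. Just under the limit, in the values as deposited, were ACADVL (0.56) and ACADSB (-0.55) in AGS, and CPT1A (0.56) and ECI2 (0.54) in MKN74.

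The median change was -0.084 in AGS, where the median over all genes tested was -0.0034, and 0.13 in MKN74, where it was -0.020. In AGS 14 of 32 genes had a change above 0 (43.8%, beside 49.7% of all genes). In MKN74 25 of 32 did (78.1%, beside 46.8% of all genes). Counting intervals of the ratio lay above 1 for 10 genes and below 1 for 17 in AGS, beside 37.2% and 38.9% of all genes. In MKN74 they lay above 1 for 17 genes and below 1 for 3, beside 29.2% and 35.7% of all genes. Of the 31 genes measured in both lines, 13 were lower in AGS and higher in MKN74, 11 higher in both, 5 lower in both and 2 higher in AGS and lower in MKN74. Over all 10766 genes measured in both lines the same patterns held 20.6%, 25.6%, 31.0% and 22.8%, beside 41.9%, 35.5%, 16.1% and 6.45% of the members. With counting intervals that exclude 1 in both lines, 8 of 31 members were lower in AGS and higher in MKN74 (25.8%, beside 9.59% of all genes), and 0 were the other way round (beside 11.2%). Whether the response differs between the lines was not tested, since 1 library per group leaves no replicate for it.

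**Figure D2:**
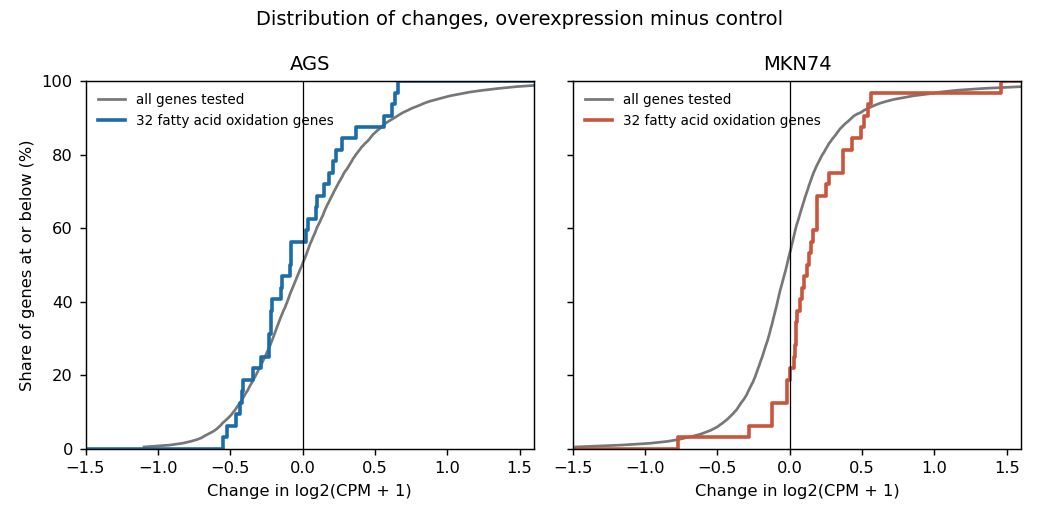
Cumulative share of genes (%) at or below each change in log2(CPM + 1), for all genes tested (grey) and the 32 measured fatty acid oxidation genes (colour), in AGS on the left and MKN74 on the right. In MKN74 the coloured curve runs to the right of the grey one over the middle of the range, with medians of 0.13 and -0.020, and in AGS the curves cross.

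In the carnitine shuttle, the 5 genes together took 181 and 197 CPM in the AGS control and overexpression libraries and 112 and 159 CPM in those of MKN74. The ratio of these sums was 1.08 (1.05 to 1.12) in AGS and 1.41 (1.36 to 1.47) in MKN74, the largest ratio of the 6 role groups in that line. CPT1A, the outer membrane carnitine palmitoyltransferase that controls entry of long chains, was at 129 and 143 CPM in AGS and at 78.8 and 117 CPM in MKN74. It was higher in each overexpression library than in its control, by a ratio of 1.11 (1.07 to 1.15) in AGS and 1.48 (1.42 to 1.55) in MKN74, and it makes up most of the group's reads. CPT2, which returns the chain to coenzyme A on the inner membrane, was at 30.9, 33.1, 15.0 and 20.5 CPM in the AGS control, AGS overexpression, MKN74 control and MKN74 overexpression libraries. The MKN74 control was the lowest of the 4 and the ratio in that line was 1.37 (1.24 to 1.52), while the AGS interval, 0.992 to 1.16, included 1. The carrier gene SLC25A20 stood at 11.3, 12.2, 7.15 and 6.52 CPM in the same order of libraries. Both MKN74 libraries were below both AGS libraries, and the intervals of both changes included a ratio of 1.

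CRAT, the carnitine acetyltransferase that handles short chains, was the only measured member past 2-fold on the log2(CPM + 1) scale with overexpression. It was at 0.146, 0.532, 0.407 and 2.86 CPM in the AGS control, AGS overexpression, MKN74 control and MKN74 overexpression libraries, on 6, 23, 17 and 131 reads. Its change was 1.46 in MKN74, a ratio of 7.02 (4.22 to 12.4). In AGS its mean lay under 1 CPM and its ratio was 3.64 (1.44 to 10.9), so it was higher in both overexpression libraries at a level that few reads support. CROT, the peroxisomal carnitine octanoyltransferase, was at 9.75 and 7.47 CPM in AGS and at 11.0 and 11.8 CPM in MKN74. Its ratio was below 1 in AGS, 0.766 (0.659 to 0.889), and could not be told from 1 by counting error in MKN74.

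Among the acyl-CoA dehydrogenases, which take the first step of each round for chains of different length, ACADVL was higher with overexpression in both lines. ACADVL acts on very long chains. It was at 137 and 203 CPM in AGS, at a ratio of 1.48 (1.43 to 1.53) or a change of 0.56. In MKN74 it was at 94.6 and 123 CPM, at a ratio of 1.30 (1.25 to 1.35) or a change of 0.37. ACADS, the short-chain enzyme, was at 19.2 and 22.7 CPM in AGS and at 7.70 and 11.3 CPM in MKN74. Each overexpression library was above its control, at ratios of 1.18 (1.08 to 1.30) and 1.46 (1.27 to 1.68). ACADM, the medium-chain enzyme, parted between the lines, at 87.9 and 66.0 CPM in AGS and 33.5 and 38.3 CPM in MKN74. ACADSB, which acts on short branched chains from isoleucine, did so as well, at 34.9 and 23.5 CPM in AGS and 18.6 and 22.7 CPM in MKN74. The AGS control was the highest library for both genes and the MKN74 control the lowest. ACAD8, the isobutyryl-CoA dehydrogenase of valine breakdown, changed by 0.27 in AGS and -0.021 in MKN74. ACAD9, known also as an assembly factor of respiratory complex I, differed by less than 0.15 in either line, at -0.14 and 0.045.

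Of the 7 enzymes of the later steps none passed 1.5-fold in either line, beside 17.0% of all genes in AGS and 11.1% in MKN74. In AGS 6 of them had a change below 0, among them HADHA, whose sign turned with quantile normalization. Of all genes in AGS 49.7% had a change above 0. The group median in AGS was -0.42, and the summed level of the 7 went from 821 to 691 CPM, a ratio of 0.841 (0.828 to 0.854). In MKN74 the sum went from 675 to 757 CPM, a ratio of 1.12 (1.11 to 1.14), and the median was 0.12. ECHS1, the short-chain enoyl-CoA hydratase, was at 145 and 105 CPM in AGS and 84.8 and 92.3 CPM in MKN74. HSD17B10, a hydroxyacyl-CoA dehydrogenase that is also a subunit of mitochondrial RNase P, was at 78.2, 54.2, 81.5 and 75.2 CPM in the order AGS control, AGS overexpression, MKN74 control and MKN74 overexpression. ACAT1, the acetoacetyl-CoA thiolase, was at 129 and 95.7 CPM in AGS and at 144 CPM in both MKN74 libraries. For these last 2 genes the AGS overexpression library was the lowest of the 4. HADH, the short-chain hydroxyacyl-CoA dehydrogenase, barely differed with overexpression, with changes of 0.040 and 0.051.

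HADHA and HADHB encode the alpha and beta subunits of the mitochondrial trifunctional protein, which performs the later steps on long chains. HADHA was at 244 and 230 CPM in AGS and at 179 and 213 CPM in MKN74, and HADHB at 155 and 134 CPM in AGS and at 125 and 162 CPM in MKN74. Both were lower with overexpression in AGS, at ratios of 0.943 (0.917 to 0.969) and 0.866 (0.836 to 0.898), and higher in MKN74, at 1.19 (1.15 to 1.23) and 1.29 (1.25 to 1.34), but the AGS change of HADHA turned from -0.085 to 0.035 with quantile normalization. The pair lies head to head on chromosome 2 in the RefSeq table of build GRCh38.p14, HADHA on the minus and HADHB on the plus strand, with start sites 307 bases apart. Their promoter windows of 250 bases before to 50 after the start share 194 bases. The stretch is shown because the pair shares a start region and, as deposited, had changes of like sign in each line. Whether it bears on those changes was not tested. The Sp1 core GGGCGG, read here as its reverse complement, is in capitals.
Shared stretch of HADHA and HADHB, plus strand, chr2:26244689-26244882: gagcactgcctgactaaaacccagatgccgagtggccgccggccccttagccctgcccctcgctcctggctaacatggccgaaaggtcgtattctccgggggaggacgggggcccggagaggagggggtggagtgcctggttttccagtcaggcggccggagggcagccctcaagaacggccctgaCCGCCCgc

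ACAA2, the mitochondrial thiolase that releases acetyl-CoA at the end of a round, was the gene that stood furthest above AGS in MKN74. It was at 1.88 and 1.16 CPM in the AGS control and overexpression libraries and at 21.2 and 30.7 CPM in those of MKN74. The 2 MKN74 libraries were far above the 2 AGS libraries, and the ratio between the controls was 11.3. With overexpression its ratio was 0.616 (0.423 to 0.891) in AGS and 1.45 (1.33 to 1.58) in MKN74. Its promoter window is shown as that of the gene with the largest excess in MKN74, and it held none of the motifs searched, so no letter is in capitals.
ACAA2, minus strand, chr18:49813484-49813783: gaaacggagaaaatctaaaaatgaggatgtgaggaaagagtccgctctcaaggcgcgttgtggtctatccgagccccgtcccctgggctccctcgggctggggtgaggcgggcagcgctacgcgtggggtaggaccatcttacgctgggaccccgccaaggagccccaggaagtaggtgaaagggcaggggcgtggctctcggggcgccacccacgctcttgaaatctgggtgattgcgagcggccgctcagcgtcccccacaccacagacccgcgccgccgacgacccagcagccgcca

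The enzymes that prepare unsaturated chains for oxidation held 2 of the 3 genes called in AGS. Their summed level went from 109 to 141 CPM in AGS, a ratio of 1.29 (1.24 to 1.34), and from 81.6 to 95.2 CPM in MKN74, a ratio of 1.17 (1.12 to 1.22). DECR2, the peroxisomal dienoyl-CoA reductase, was at 13.2 and 21.5 CPM in AGS, a change of 0.66, and at 9.57 and 9.79 CPM in MKN74, a change of 0.030. ECI1, a mitochondrial enoyl-CoA isomerase, was at 34.4 and 54.3 CPM in AGS, a change of 0.64, and at 35.6 and 39.0 CPM in MKN74, a change of 0.13. For both genes the AGS overexpression library was the highest of the 4. ECI2, the isomerase found in peroxisomes and mitochondria, had the reverse order of changes, 0.21 in AGS (36.5 to 42.4 CPM) and 0.54 in MKN74 (13.6 to 20.2 CPM). DECR1, the mitochondrial dienoyl-CoA reductase, was between 22.6 and 26.2 CPM in all 4 libraries.

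The electron carriers, 3 genes, had no member past 1.5-fold, beside 17.0% of all genes in AGS and 11.1% in MKN74. ETFA and ETFB encode the subunits of the electron transfer flavoprotein, and ETFDH encodes the dehydrogenase that passes its electrons on. ETFA was at 227 and 215 CPM in AGS and at 149 and 123 CPM in MKN74, lower in each overexpression library, with ratios of 0.944 (0.917 to 0.972) and 0.825 (0.796 to 0.856), though its AGS change turned from -0.083 to 0.032 with quantile normalization. ETFB was at 40.2, 52.1, 58.1 and 61.2 CPM in the AGS control, AGS overexpression, MKN74 control and MKN74 overexpression libraries, so the AGS control was the lowest and ETFB was higher in AGS overexpression by a ratio of 1.30 (1.22 to 1.38). ETFDH was between 10.9 and 13.5 CPM.

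**Figure D3:**
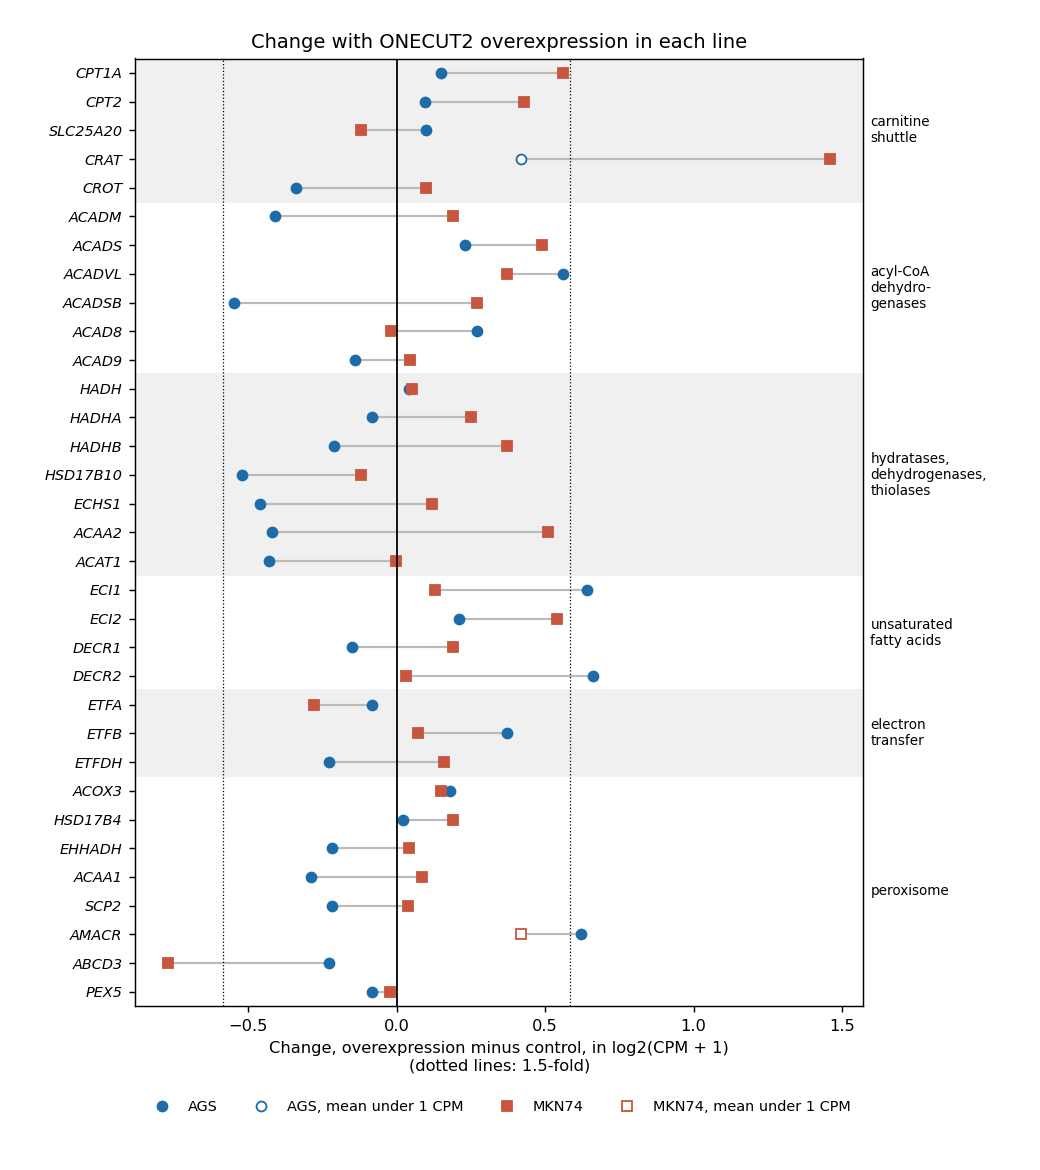
Change of each gene with ONECUT2 overexpression in log2(CPM + 1), blue circles for AGS and red squares for MKN74, open where the mean of the line was under 1 CPM, with dotted lines at 1.5-fold. DECR2, ECI1 and AMACR lie past the upper line in AGS, and CRAT (1.46) and ABCD3 (-0.77) lie past the lines in MKN74.

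In the peroxisomal group ABCD3, the half-transporter that carries bile acid intermediates and dicarboxylic and branched acyl-CoA into the peroxisome, was lower in both overexpression libraries. It was at 101 and 85.9 CPM in AGS, a ratio of 0.854 (0.817 to 0.893), and at 201 and 117 CPM in MKN74, at a ratio of 0.586 (0.566 to 0.606) or a change of -0.77. The MKN74 control was the highest library, and the other 3 lay within 85.9 to 117 CPM. The summed level of the 8 genes went from 542 to 504 CPM in AGS and from 496 to 434 CPM in MKN74, with ratios of 0.930 (0.913 to 0.947) and 0.875 (0.858 to 0.892). In MKN74 the difference in the sum was smaller than that of ABCD3 alone, and ACOX3, HSD17B4, EHHADH, ACAA1 and SCP2 had changes between 0.037 and 0.19 there.

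AMACR, a racemase that readies branched chains and bile acid intermediates for oxidation, was low in both lines. It was at 1.78 and 3.28 CPM in AGS, at a ratio of 1.84 (1.38 to 2.48) or a change of 0.62. This change was under 1.5-fold with a pseudocount of 2, at 0.48, and with quantile normalization, at 0.30. In MKN74 it was at 0.287 and 0.720 CPM on 12 and 33 reads, a ratio of 2.51 (1.26 to 5.33). Each overexpression library was above its control, and both MKN74 libraries were below both AGS libraries. Its promoter window is shown because AMACR and CRAT had the largest mean change over the lines. The CCAAT box, read as its reverse complement ATTGG, is in capitals.
AMACR, minus strand, chr5:34008001-34008300: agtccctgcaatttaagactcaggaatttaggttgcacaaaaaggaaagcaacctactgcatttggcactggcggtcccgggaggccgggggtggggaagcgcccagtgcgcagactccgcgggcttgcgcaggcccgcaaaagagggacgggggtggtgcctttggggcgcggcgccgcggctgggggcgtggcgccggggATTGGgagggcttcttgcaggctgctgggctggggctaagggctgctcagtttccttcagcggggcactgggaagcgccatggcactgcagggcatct

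The remaining peroxisomal genes differed by less than 1.5-fold with overexpression in both lines. HSD17B4, the D-bifunctional protein, was at 206, 209, 95.3 and 109 CPM in the AGS control, AGS overexpression, MKN74 control and MKN74 overexpression libraries. ACAA1, the peroxisomal thiolase, was at 42.2, 34.3, 58.3 and 61.9 CPM in that order. SCP2, which yields a thiolase and a sterol carrier protein, was at 105 and 89.7 CPM in AGS and at 80.9 and 83.0 CPM in MKN74. ACOX3, the oxidase for branched chains, was between 11.2 and 16.6 CPM, and PEX5, the receptor that imports enzymes into the peroxisome, between 43.8 and 47.3 CPM.

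Taking the lines as the replicates of overexpression, no gene of the 32 tested passed the test of a change common to both. limma, fitted to all 12340 genes with the cell line as a covariate and 1 residual degree of freedom, called 0 genes at a Benjamini-Hochberg adjusted p of 0.05, which is 0% of the genes tested. An unadjusted p under 0.05 was reached by 566 genes (4.59%). With voom weights on the recovered reads 0 were called and 902 reached it. Among the members ACADVL alone was under that unadjusted limit, higher in both lines with a common change of 0.47 (SE 0.16), an unadjusted limma p of 0.0388 and an adjusted p of 0.800. Adjusted p of the other members ranged up to 0.994. ONECUT2 itself, with a common change of 2.55, was not called (limma adjusted p = 0.800), nor was ACSL5, at 3.90 (limma adjusted p = 0.800). A miss in this fit does not show that a gene did not change.

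More members were called between the lines than with overexpression. The same limma fit, with the coefficient of the cell line over the 4 libraries, called 13 of 32 genes, 10 lower and 3 higher in MKN74 than in AGS. Each line gave 1 control and 1 overexpression library, so its p-values do not measure the spread of replicates within a line. Of all 12340 genes 43.2% were called, 22.3% lower and 20.9% higher, so the members' 40.6% is close to the background, with more of it on the lower side (31.2% and 9.38%). In the controls alone 7 of 32 were at least 2-fold lower in MKN74 and 1 at least 2-fold higher, beside 16.4% and 14.5% of 12161 genes (30.9% in either direction). At 1.5-fold 13 were lower and 2 higher, beside 26.3% and 25.1% (51.4% in either direction). The controls' difference was above 0 for 10 of 32 members and for 50.7% of all genes. Between the overexpression libraries 4 of 33 were at least 2-fold lower in MKN74 and 2 higher, beside 18.0% and 15.1% of 12416 genes (33.1% in either direction). The median difference between the controls was -0.40, beside 0.017 over all genes, and between the overexpression libraries it was -0.11, beside 0.025. Some uncalled members differed in sign between these pairs, among them HADHB (-0.30 in the controls, 0.27 in the overexpression libraries) and ECI1 (0.047 and -0.47).

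EHHADH, the L-bifunctional protein of peroxisomes, had the largest difference between the controls and in the limma fit, while between the overexpression libraries that of ACAA2 was larger (3.88 against -3.39). It was at 29.2 and 25.0 CPM in the AGS libraries and at 1.41 and 1.48 CPM in the MKN74 libraries, with a limma difference of -3.52 (SE 0.21, adjusted p = 0.00120). The control of AGS was 20.7 times that of MKN74, and the lines did not overlap. HSD17B4, the other bifunctional protein, was also lower in MKN74 (-1.02, SE 0.16, limma adjusted p = 0.0112), whereas the peroxisomal thiolase ACAA1 (0.65, SE 0.18, adjusted p = 0.0468) and the transporter ABCD3 (0.72, SE 0.20, adjusted p = 0.0462) were higher there. AMACR was lower in MKN74 by 1.21 on this scale (limma difference -1.21, SE 0.26, adjusted p = 0.0248).

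Except for ACAA2, the called genes of the mitochondrial pathway were lower in MKN74. ACAA2 was higher in MKN74, by 3.41 (SE 0.30, limma adjusted p = 0.00277). ECI2 (-1.20, adjusted p = 0.0109), ACADS (-1.08, adjusted p = 0.0156) and ACADM (-1.07, adjusted p = 0.0196) were lower in MKN74 by limma. So were CPT2 (-0.84), HADH (-0.81), ETFA (-0.71) and ACADVL (-0.62), with limma adjusted p between 0.0189 and 0.0378. For all 13 called genes both libraries of one line lay above both libraries of the other. CPT1A, at -0.50 with a limma adjusted p of 0.0885, and SLC25A20, at -0.71 with 0.0507, were not called. CRAT was under the mean of 1 CPM over the 4 libraries and was not tested.

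**Figure D4:**
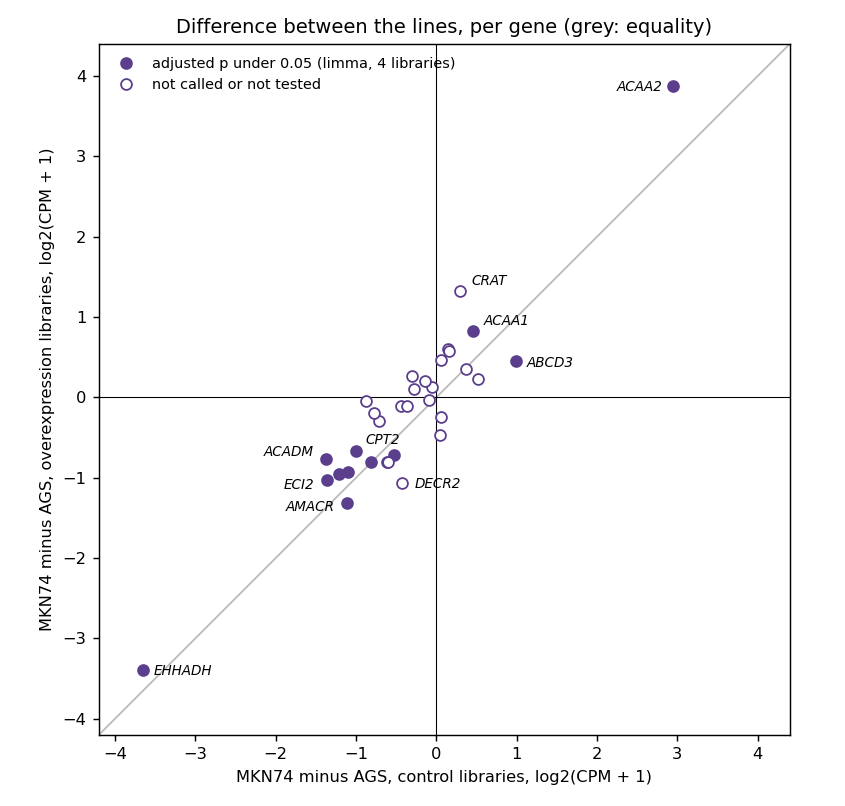
Difference MKN74 minus AGS in log2(CPM + 1) for each of the 33 genes, between the control libraries on the horizontal axis and between the overexpression libraries on the vertical axis, with filled circles for genes called by limma over the 4 libraries. EHHADH at -3.65 and -3.39 and ACAA2 at 2.95 and 3.88 lie far from the other genes, which sit between -1.4 and 1.4 on both axes.

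Other enzymes of fatty acid oxidation, outside the 33, had few calls with overexpression. Of 20 measured in AGS 1 was at least 1.5-fold higher with overexpression and 0 lower, beside 11.2% and 5.73% of all genes. This was ACAD10, an acyl-CoA dehydrogenase relative, at 9.97 and 15.9 CPM. Of 19 measured in MKN74 0 passed 1.5-fold either way, beside 11.1% of all genes. The list medians were 0.10 in AGS and 0.25 in MKN74. Between the lines limma called 8 of 22 lower and 3 higher in MKN74 (11 of 22 in all, beside 43.2% of all genes). IVD, the isovaleryl-CoA dehydrogenase of leucine breakdown, was at 92.5 and 73.4 CPM in AGS and at 0.981 and 1.79 CPM in MKN74 (-5.15, SE 0.27, limma adjusted p = 9.72e-04). MLYCD, the malonyl-CoA decarboxylase, was listed at 0 and 0.0231 CPM in AGS, the latter being 1 read, and at 3.04 and 4.14 CPM in MKN74. ECH1, ALDH3A2, ACOT2, ACOT9, ECHDC3 and PHYH were also called lower in MKN74 and were at least 2-fold lower between the controls, and NUDT19 and ECHDC2 were the others called higher.

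Among 13 measured acyl-CoA synthetases and fatty acid transport genes, 2 were at least 1.5-fold higher in AGS, ACSL5 (2.24) and the transport protein gene SLC27A1 (1.89), and 3 in MKN74, ACSL5 (5.55), the medium-chain synthetase ACSM3 (2.65) and ACSL4 (0.60). None was lower. These are 15.4% of the list in AGS and 23.1% in MKN74, beside 17.0% and 11.1% of all genes.

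Peroxisome biogenesis genes showed no call in either line, with medians of 0.069 in AGS and 0.076 in MKN74. In AGS 0 of 17 passed 1.5-fold, beside 17.0% of all genes, and in MKN74 0 of 18, beside 11.1%. Between the lines limma called 5 higher and 3 lower in MKN74 out of 18 (44.4%, beside 43.2% of all genes), among the latter CAT, the peroxisomal catalase, at 70.0 and 68.0 CPM in AGS and 22.7 and 24.4 CPM in MKN74. In the list of propionate and ketone body enzymes 1 of 8 was at least 1.5-fold higher in AGS and 1 lower (25.0% in all, beside 17.0%). PCCA, a subunit of propionyl-CoA carboxylase, was at 17.7 and 28.5 CPM. ACAT2, the cytosolic acetoacetyl-CoA thiolase, was at 29.5 and 11.1 CPM, beside its mitochondrial relative ACAT1 at 129 and 95.7 CPM. In MKN74 0 of 6 passed 1.5-fold, beside 11.1% of all genes. PCCA and OXCT1, the enzyme that activates ketone bodies, were at most 0.359 CPM in that line against 17.7 to 57.0 CPM in AGS.

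Regulators of the pathway were followed as a list made up largely of nuclear receptors and their cofactors. Of 21 measured in AGS 2 were at least 1.5-fold higher and 2 lower, and of 19 in MKN74 1 was higher and 0 lower. The called shares were 19.0% and 5.26%, beside 17.0% and 11.1% of all genes. PPARA, the nuclear receptor that induces fatty acid oxidation in liver, was at 4.36 and 12.0 CPM in AGS, a change of 1.27, and at 7.54 and 10.3 CPM in MKN74, a change of 0.40. PPARD, a related receptor, was at 16.9 and 32.5 CPM in AGS and 29.4 and 36.9 CPM in MKN74. Both were higher in each overexpression library than in its control. PPARG, the receptor best known from fat cells, was at 24.0 and 24.5 CPM in AGS and at 1.53 and 6.09 CPM in MKN74, where its change was 1.48.

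PPARGC1A, a coactivator that raises mitochondrial gene expression, was at 14.1 and 6.64 CPM in AGS, a change of -0.99, and at 0.144 and 0.698 CPM in MKN74, on 6 and 32 reads. ESRRG, an estrogen-related receptor that acts with it, was at 38.0 and 3.79 CPM in AGS and at 0.0239 and 0 CPM in MKN74, where 0 reads allow up to 0.0654 CPM. ESRRA, its relative, had changes of 0.16 and 0.28. HNF4A, a receptor of liver and gut epithelium, was at 84.3, 97.9, 48.1 and 39.3 CPM in the AGS control, AGS overexpression, MKN74 control and MKN74 overexpression libraries.

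**Figure D5:**
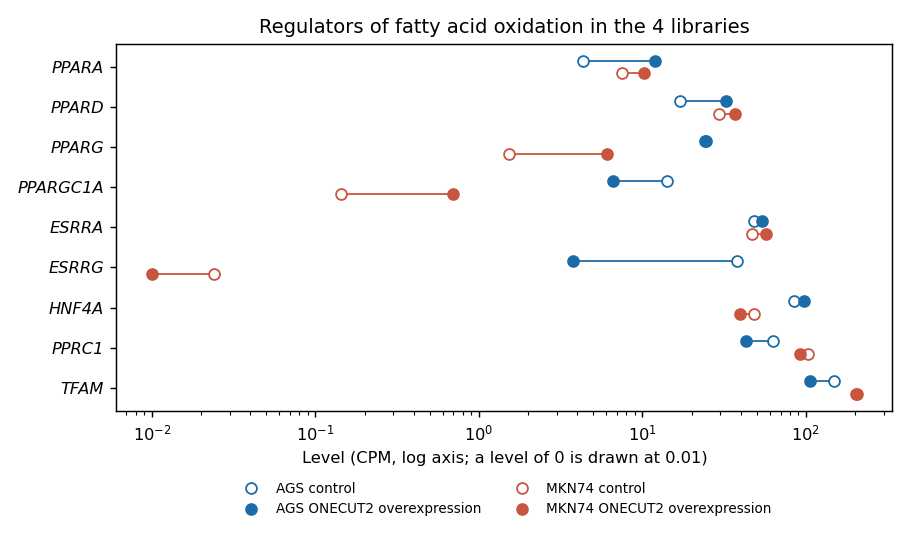
Level in CPM (log axis) of 9 regulators of fatty acid oxidation in the 4 libraries, with open circles for control and filled circles for ONECUT2 overexpression, blue for AGS and red for MKN74. PPARA and PPARD lie to the right of their controls in both lines, PPARG does so in MKN74 only by more than 1.5-fold, and ESRRG and PPARGC1A lie to the left in AGS.

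Of 16 PPAR targets 7 were listed, 2 of them members, CPT1A and ACADVL. In AGS 2 of 7 were at least 1.5-fold higher and 0 lower (28.6%, beside 17.0% of all genes called in either direction). The members CPT1A (0.15) and ACADVL (0.56) were not called there. TXNIP, which binds thioredoxin and limits glucose uptake, was at 49.8 and 289 CPM in AGS and at 0 CPM in both MKN74 libraries. FGF21, a fasting hormone gene, went from 1 read in the AGS control (0.0244 CPM) to 2.31 CPM. In MKN74 0 of 4 passed 1.5-fold (beside 11.1% of all genes), with the members CPT1A at 0.56 and ACADVL at 0.37. UCP2, a mitochondrial carrier, was at 32.6 and 37.9 CPM in AGS and at 0.0239 and 0.0218 CPM in MKN74, the latter on 1 read each.

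Promoter windows were available in the RefSeq table of build GRCh38.p14 for 27 of the 33 genes, the others being CRAT, DECR1, DECR2, ETFDH, EHHADH and ACAA1. Each window of 300 bases was searched on both strands. The ONECUT core ATTGAT was found in 1 of 27, SLC25A20, beginning 247 bases before the start. It was in 6.40% of 27305 windows of all genes, a set not limited to the genes of the deposited table. The form ATCGAT was found in 0 of 27 (0.776% of all windows), the nuclear receptor half-site AGGTCA in 0 of 27 (13.9%), and its direct repeat AGGTCANAGGTCA, which contains the half-site, in 0 of 27 (0.0220%). The Sp1 core GGGCGG was found in 22 of 27 (81.5%, beside 44.6% of all windows) and CCAAT in 6 of 27 (22.2%, beside 35.7%). HADHA and HADHB were counted separately for Sp1, though a match lies in the stretch that their windows share. The members' windows also had a higher GC content, with a median of 67.0% beside 58.3% over all windows. A match describes these letters only, and no match says nothing of binding elsewhere.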

How the data were processed

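RNA sequencing libraries of AGS and MKN74 were grouped by the labels' titles, 1 library per group, and the 8 ChIP samples were not analysed here. Libraries were made with a TruSeq RNA kit, per the labels' protocols. The build hg19 and, in no stated role, edgeR 3.12.1, STAR 2.5.1, HOMER 4.9.1, Bowtie2 2.1.0 and CASAVA 1.7 appear in the submitters' processing notes. The sources used here name neither the read counter nor its strand setting, so antisense and overlapping genes cannot be told apart with certainty. The deposited table holds log2 values, log2(CPM + 1) by the values themselves, in 13109 rows, and 18 rows named by a date were left out. Undoing the log gave whole reads for 100% of values, within 2.6e-08 of a read. The listed reads made up 83.1% to 88.1% of the library size that the value of 1 read implies.

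Changes, ratios and counts were computed in Python 3.11.15 with scipy 1.17.1, pandas 2.3.3 and numpy 2.4.6, and drawn with matplotlib 3.10.9. The test across genes was limma 3.58.1 in R 4.3.3 with empirical Bayes moderation and a mean trend on log2(CPM + 1). Benjamini-Hochberg adjustment was over all genes averaging 1 CPM or more. The fit was also run on simulated data, in which a planted overexpression change was the same in both lines. That run does not show how the fit performs where the lines respond differently. Nothing in the labels says that the libraries are independent cultures. Alternatives were pseudocounts of 0.1 and 2, a filter at 5 CPM or none, scaling by listed totals, quantile normalization, a common median, other fold sizes, voom weights, moderation without trend and the covariate left out. All 33 members could be named, and of the other lists the genes past 1.5-fold in a line or 2-fold between controls, with 5 regulators and ACSL5. Promoters were to be shown for the members with the largest changes and line differences. The HADHA and HADHB stretch was chosen after their values were seen. Members and lists were chosen with earlier results of these data known. Some genes of the other lists are not reported here and are left out of the list counts and medians.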

Additional observations from a re-analysis of the deposited data

Results flagged for a closer look

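For 8 of the fatty acid oxidation genes and 4 genes of the regulators list the counting interval of the ratio excluded 1 in both lines, in opposite directions, so that the library of one line was above its control and that of the other below. The difference between the lines was not tested, since each change rests on 1 library per group. ACADM was at -0.41 in AGS and 0.19 in MKN74, and ACADSB at -0.55 and 0.27. HADHA was at -0.085 in AGS and 0.25 in MKN74, and its partner subunit HADHB at -0.21 and 0.37. ECHS1 was at -0.46 in AGS and 0.12 in MKN74, and ACAA2 at -0.42 and 0.51. DECR1 was at -0.15 in AGS and 0.19 in MKN74, and ACAA1 at -0.29 and 0.085. All 8 were lower in AGS and higher in MKN74 as deposited, but with quantile normalization HADHA was at 0.035 in AGS, so that its directions no longer differed. These are 8 of the 31 members measured in both lines (25.8%), beside 20.8% of all 10766 genes with opposite intervals in either order. Of the regulators measured in both lines 3 of 19 had them (15.8%), a share below that of all genes. PPARGC1A averaged under 1 CPM in MKN74 and is not in that count. Of the regulators, HNF4A was at 0.21 in AGS and -0.28 in MKN74 and TFEB at 0.21 and -0.32, while LPIN1 was at -0.27 and 0.33 and PPARGC1A at -0.99 and 0.57, the last below 1 CPM in MKN74. TFEB and LPIN1 were named after their values were seen.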

How the results depend on the processing

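No called value turned to the opposite sign under the alternatives tried, but small uncalled changes did under another scaling, 4 in AGS (among them HADHA, to 0.035, and ETFA, to 0.032, with quantile normalization) and 5 in MKN74. Calls past 1.5-fold are few, and many lie close to the limit. In AGS the 3 calls became 5 with quantile normalization, 2 of them lower, and 0 at 2-fold, and with a pseudocount of 0.1 there was 1 lower call. Of all genes in AGS 16.0%, 4.92% and 20.3% were called in either direction under these settings. AMACR lost its call with quantile normalization (0.30), where ACADVL gained one (0.64), and with a pseudocount of 2 (0.48). In MKN74 the 2 calls became 1 at a mean of at least 5 CPM (0 higher), 4 with listed totals (3 higher), and 1 at 2-fold (0 lower), and 2 were higher with quantile normalization. Of all genes in MKN74 8.84%, 11.7%, 4.61% and 11.5% were called in either direction under these settings. Between the controls 2 genes were at least 2-fold higher in MKN74 with listed totals, quantile normalization or a common median. At 1.5-fold 15 were called, 2 higher and 13 lower, beside 51.4% of all genes in either direction. The overexpression libraries gave 2 higher and 4 lower at 2-fold, beside 33.1% of all genes in either direction, with a median of -0.11. For the line difference 1 was called higher without a trend, and 10 to 13 of the 13 genes were called again under each alternative. ACADVL was lost with a common median (limma adjusted p = 0.0521), without a trend (0.0592) and without the covariate (0.107), ABCD3 without a trend (0.0668) and without the covariate (0.104), and ACAA1 without a trend (0.0668). The common overexpression effect gave 0 calls under every alternative. The cause of these differences was not tested. Listed totals moved the median of all genes by 0.059 in AGS and 0.052 in MKN74, where 28 of 32 members were then above 0 beside 55.1% of all genes. The limma fit already pairs the libraries by cell line. No paired analysis was possible by replicate number, because each group has 1 library within its line. CRAT, AMACR in MKN74, ACAA2 in AGS and PPARGC1A in MKN74 rest on few reads.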
